A study of Mus musculus with 10 samples.

Results

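The transcription factors that set macrophage identity were followed in mouse peritoneal macrophages. The 9 genes were Spi1, Cebpa, Cebpb, Cebpd, Maf, Klf2, Klf4, Gata6 and Runx1. The rule used their names, as factors known to specify or maintain the macrophage lineage, and was set with earlier results of these data known. They are 9 of the 29700 genes in the deposited table once rows for circular RNAs are left out. All 9 passed the filter on low counts, which kept 12654 genes.

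RNA-seq covered 10 libraries, 5 of control and 5 of ox-LDL-treated macrophages from C57BL/6 mice aged 8 weeks. Ox-LDL is oxidized low-density lipoprotein, the modified particle that macrophages take up in the atherosclerotic artery wall. In the labels, the treated cells were primed with LPS, a bacterial cell wall component, at 100 ng/ml and then received ox-LDL at 100 µg/ml for 16 h, and the control cells were untreated. By these labels a difference between the groups contains both LPS and ox-LDL, which cannot be told apart. Another reading of the study's account is that LPS was given to controls too. The labels were followed here, and which reading holds is not settled. All cells were elicited with thioglycollate broth and taken from the peritoneal cavity on the third day, so they are largely recruited, inflammatory cells rather than the resident population. Nothing in the labels says whether libraries came from separate mice, so p-values measure the spread between these libraries, which may be technical. Total estimated counts ranged from 19257131 to 20687289 per library. The TMM factor, which corrects for differences in library composition, ranged from 0.593 in ox-LDL replicate 2 to 1.19, and ox-LDL replicate 2 stood apart from the other libraries in this respect.

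A macrophage arises from a myeloid precursor through a small set of transcription factors. PU.1, encoded by Spi1, opens macrophage enhancers and binds them together with C/EBP family members and RUNX1. Cebpa acts in the commitment of precursors, Cebpb in inducible inflammatory genes of mature cells, and Cebpd as an early-induced relative of both. Maf holds mature macrophages in a differentiated, non-dividing state. The Krüppel-like factors Klf2 and Klf4 restrain or shape inflammatory activation, and Gata6 is the tissue-specific factor of resident large peritoneal macrophages.

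Against this background, Cebpb rose 4.57-fold and Maf fell to a level 3.11-fold lower in the ox-LDL group. The other 7 genes did not pass the threshold, an adjusted p below 0.01 by edgeR's quasi-likelihood test with Benjamini-Hochberg adjustment over all 12654 genes. Thus 1 of 9 was called higher and 1 of 9 lower, where 9.4% and 5.35% of all genes tested were called in these directions. Groups did not overlap for 3 of the 9, Cebpb, Maf and Klf4, against 20.7% of all genes tested. This holds for CPM after TMM normalization. In FPKM, scaled by library total, Klf4 overlapped, whereas Cebpd and Runx1 did not, and Cebpb and Maf were apart on both scales. The fitted log2 fold change was above 0 for 3 of the genes and below 0 for 6, and only Cebpb passed an absolute log2 fold change of 2. The median over the 9 genes was -0.17, beside 0.10 over all genes tested. Levels below are CPM, counts scaled to a common library size after TMM normalization, unless FPKM, the deposited value scaled by transcript length, is named. These are bulk libraries, in which fewer cells of a type and less RNA per cell cannot be told apart.

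**Figure D1:**
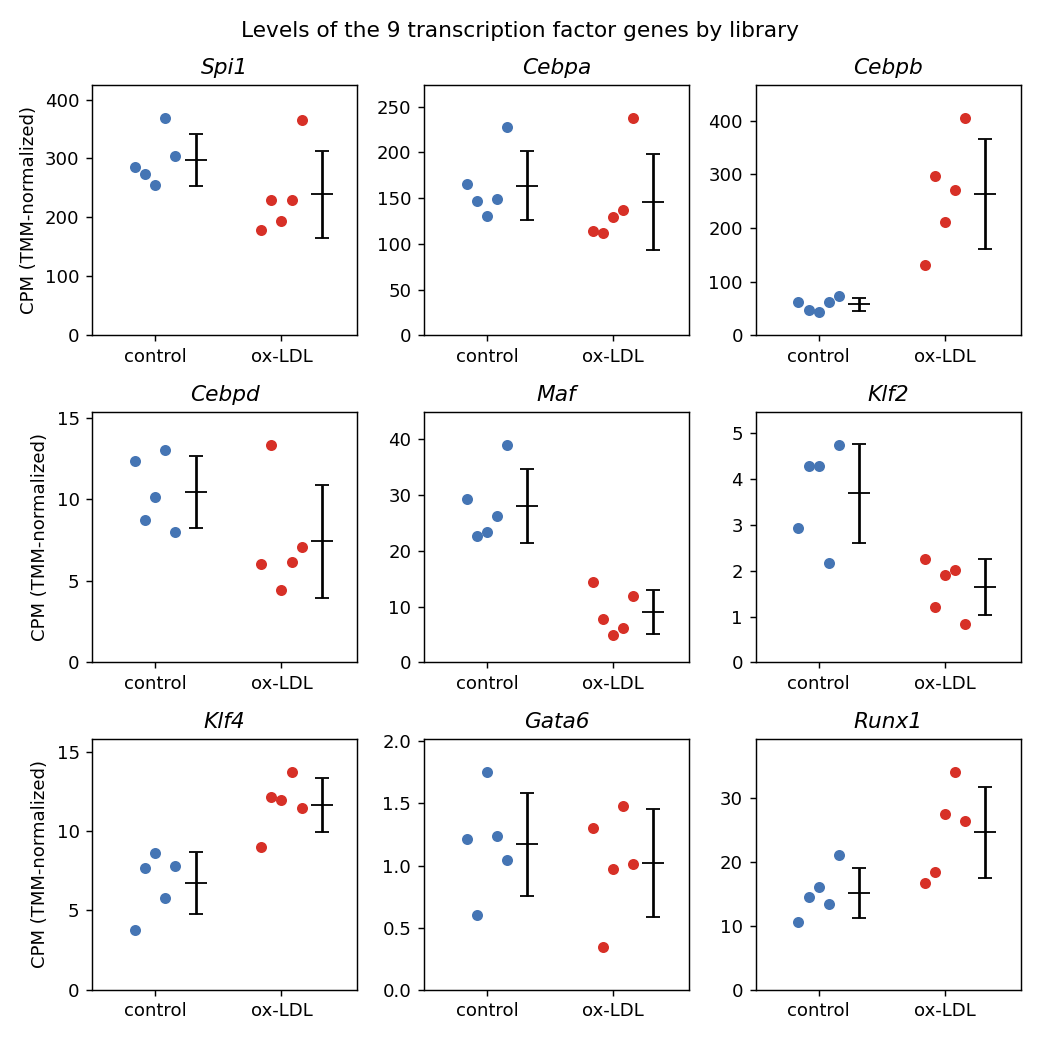
TMM-normalized CPM of each gene (vertical axis, linear, from 0) in the 5 control (blue) and 5 ox-LDL (red) libraries, each point a library and the black marks the mean ± SD. Cebpb is higher and Maf lower in every ox-LDL library than in any control library, Klf4 separates by a narrow margin, Spi1 overlaps through ox-LDL replicate 5 alone, and Cebpa and Gata6 overlap widely.

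Promoter sequence is shown for Cebpb, the gene that rose, and for Klf2 and Klf4, a pair whose ratio differed between the groups. Of the 9 genes, 5 (Cebpa, Cebpb, Klf2, Klf4 and Runx1) had a promoter taken from RefSeq's table of gene starts. No promoter was examined for Spi1, Cebpd, Maf and Gata6. The bases before each start were located on the mouse build NCBIM37 (mm9), where each matched at a single place. Capitals mark the motifs searched on both strands: the CRE core TGACG bound by CREB and ATF factors, the KLF box CACCC, the PU.1 core GAGGAA, the C/EBP site TTGCNNAA, the CCAAT and TATAAA boxes, and the NF-kB and MEF2 consensus.
Cebpb, chr2:167514165-167514414, plus strand: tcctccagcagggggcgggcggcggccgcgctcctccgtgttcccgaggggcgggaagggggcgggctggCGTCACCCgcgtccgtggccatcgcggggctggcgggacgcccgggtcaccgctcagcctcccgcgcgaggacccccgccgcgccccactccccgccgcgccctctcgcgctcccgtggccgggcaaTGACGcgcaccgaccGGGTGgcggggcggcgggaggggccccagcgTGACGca
Klf2, chr8:74842711-74842931, plus strand: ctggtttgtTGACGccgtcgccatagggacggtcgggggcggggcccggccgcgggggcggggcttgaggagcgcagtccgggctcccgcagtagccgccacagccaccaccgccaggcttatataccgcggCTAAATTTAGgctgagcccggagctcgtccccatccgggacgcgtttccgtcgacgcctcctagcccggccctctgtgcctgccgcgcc
Klf4, chr4:55545348-55545597, minus strand: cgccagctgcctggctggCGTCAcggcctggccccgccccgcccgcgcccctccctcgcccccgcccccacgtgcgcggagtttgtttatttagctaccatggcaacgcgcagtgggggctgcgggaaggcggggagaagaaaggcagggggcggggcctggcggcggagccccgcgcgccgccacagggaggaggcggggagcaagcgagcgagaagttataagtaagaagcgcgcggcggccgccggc
The Cebpb promoter held 81.6% G and C and 41 CpG dinucleotides in 250 bases, where the medians over 32851 listed promoters were 52.4% and 6. It contained the CRE core at 3 places, the leftmost on the minus strand and overlapping a CACCC box, so that both are printed as a single run of capitals. Among all listed promoters, 17.8% held a CRE core and 52.0% a CACCC box. No NF-kB consensus, found in 7.25% of promoters, and no C/EBP site, found in 9.56%, was present in these 250 bases of Cebpb. The Klf2 promoter held a MEF2 consensus, a match found in 2.92% of promoters, and a CRE core; 221 bases are printed because the annotated gene on this build starts there. Klf4 had 32 CpG dinucleotides and 1 CRE core, and no MEF2 consensus in this window. These matches describe letters and not binding.

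Cebpb encodes C/EBPβ, a bZIP factor that pairs with PU.1 at inflammatory enhancers. The gene lies at chr2:167514415-167515918 on the plus strand of mm9 and is an intronless gene with 1 annotated transcript. Its level in control replicates 1 to 5 was 61.9, 47.5, 44.3, 61.5 and 73.0 CPM. In ox-LDL replicates 1 to 5 it was 130, 297, 212, 272 and 406 CPM. Every ox-LDL library lay above every control library, and ox-LDL replicate 1 was the lowest of the treated libraries. Control libraries averaged 57.6 ± 11.7 CPM and treated ones 264 ± 102 CPM (SD, n = 5 each), for a fitted log2 fold change of 2.19 ± 0.30 (standard error), with an edgeR adjusted p of 2.76e-04. Its fold change stood above that of 95.3% of the genes tested. The exact two-sided permutation test on CPM gave p = 0.00794, the smallest that 5 against 5 libraries allow. Counts for this gene were fractional in all 10 libraries, as arises when reads are divided between features. Tmem189 overlaps it on the other strand, and whether strand was used is not stated.

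Cebpa and Cebpd, its relatives, did not pass the threshold. Cebpa, an intronless gene at chr7:35904312-35906945, was at 165, 146, 130, 149 and 227 CPM in control replicates 1 to 5 and at 114, 112, 129, 137 and 238 CPM in the ox-LDL replicates. The groups overlapped, with replicate 5 the highest of each. The fitted log2 difference was -0.16, standard error 0.25 (edgeR adjusted p = 0.675). Leaving out ox-LDL replicate 5 gave -0.42 (edgeR adjusted p = 0.149) and leaving out control replicate 5 gave -0.02 (adjusted p = 0.965), the lowest and the highest adjusted p over the alternatives. Cebpd, at chr16:15887379-15888559, was at 12.4, 8.73, 10.2, 13.0 and 8.04 CPM in control libraries and at 6.04, 13.4, 4.44, 6.17 and 7.11 CPM in ox-LDL libraries. All treated libraries but ox-LDL replicate 2 lay below the lowest control. Its fitted log2 difference was -0.50, standard error 0.29 (edgeR adjusted p = 0.219), and -0.86 without ox-LDL replicate 2, where the adjusted p was 0.00827; over all alternatives it ran from 0.00827 to 0.402. Cebpd counts were fractional in all 10 libraries, and the mm9 annotation lists the gene as a pseudogene.

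Within a library the C/EBP genes changed their order. The log2 ratio of Cebpb to Cebpa in FPKM was -0.65 ± 0.16 in control and 1.66 ± 0.44 in ox-LDL libraries (SD, n = 5 each). The difference of 2.32 had an exact permutation p of 0.00794 and a Benjamini-Hochberg value of 0.0119 over the 6 ratios compared. Ratios were called at an adjusted p below 0.05, a looser threshold than the 0.01 used for genes. Cebpa thus exceeded Cebpb in every control library, and Cebpb exceeded Cebpa in every ox-LDL library. The ratio of Cebpb to Cebpd differed by 2.74 in log2 units (exact permutation p = 0.00794, adjusted over the 6 ratios 0.0119). The ratio of Cebpd to Cebpa did not pass, with a difference of -0.42 (exact permutation p = 0.365, adjusted 0.429) and overlapping groups.

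**Figure D2:**
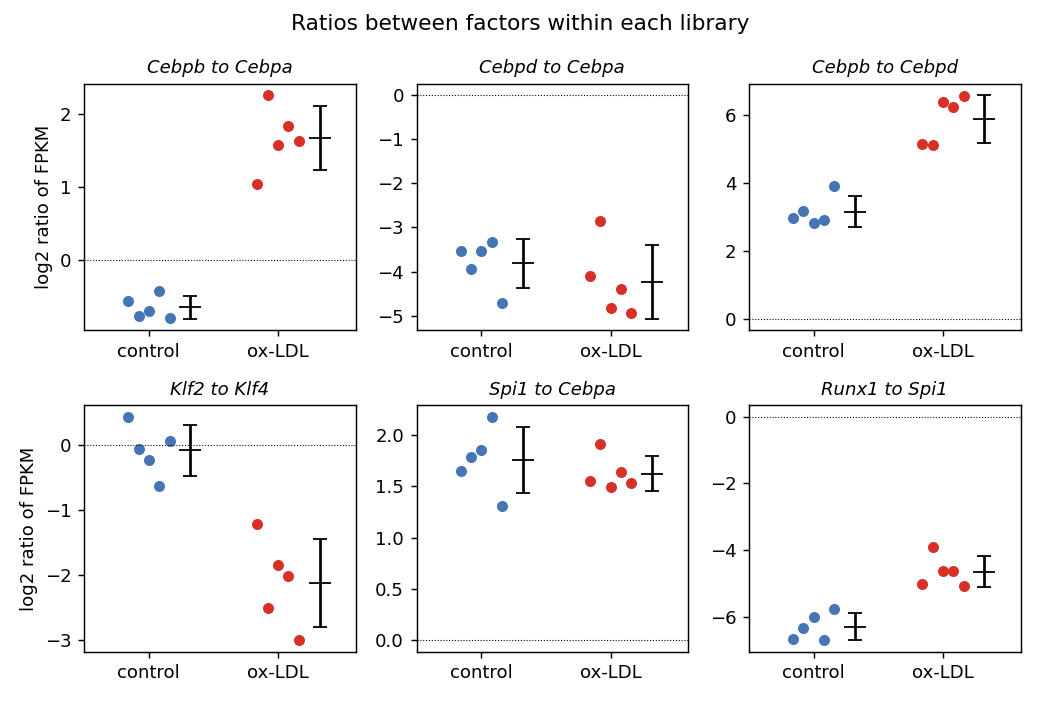
Log2 ratio of FPKM between pairs of factors within each library (vertical axes, own scale in each panel; the dotted line is a ratio of 1), in control (blue) and ox-LDL (red) libraries with mean ± SD. Cebpb to Cebpa runs from -0.79 to -0.43 in control and from 1.04 to 2.26 in ox-LDL libraries, and Klf2 to Klf4 falls below every control library in the ox-LDL group.

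The other C/EBP family members and bZIP partners were compared as a list of 7 genes, of which 6 were tested. Of these, 2 were called higher and none lower (none by DESeq2 or at an unadjusted p below 0.05), with a list median of 1.26. Nfil3, a bZIP repressor, rose from 4.52 ± 1.69 to 36.9 ± 16.9 CPM (log2 fold change 3.02, edgeR adjusted p = 1.14e-04). Batf, an AP-1 family factor, rose from 9.58 ± 1.98 to 37.4 ± 19.7 CPM (1.96, adjusted p = 8.26e-04). Ddit3 (CHOP), a C/EBP relative of the stress response, had a log2 fold change of 1.65 that did not pass (adjusted p = 0.0352), and Cebpg one of 0.58 (0.0806). Among 5 tested genes for turnover of C/EBP proteins, Trib3 rose (1.99, adjusted p = 0.00895), while Trib1, Cop1, Fbxw7 and Siah2 did not pass. The Trib3 call was lost without control replicate 5 and without ox-LDL replicate 2.

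Of 10 tested genes known to be driven by C/EBP factors, 7 rose, and none was lower by edgeR, by DESeq2 or at an unadjusted p below 0.05. They were Il6, Il12b, Nos2, Ptgs2, Lcn2, Saa3 and Hp, which encode cytokines, inflammatory enzymes and acute phase proteins. Lcn2, the siderophore-binding protein lipocalin-2, rose from 1.51 ± 1.13 to 137 ± 69.7 CPM (log2 fold change 6.50, edgeR adjusted p = 2.23e-05). Hp, haptoglobin, rose from 5.89 ± 1.97 to 48.3 ± 26.5 CPM (3.03, adjusted p = 1.98e-04). Il6 reached no more than 3 counts per library in the control group and 1.74 to 11.8 CPM in the ox-LDL group. Il12b was at 0.186 ± 0.358 CPM in control libraries and at least 16.1 CPM in ox-LDL libraries. The lowest control level was 0 for Il6, Il12b and Nos2, and 0.103 CPM for Ptgs2. These genes passed the filter on low counts through the ox-LDL group, so they could be called higher but hardly lower. Control replicate 5 held the highest control level of Nos2, 6.26 CPM, and of Ptgs2, 7.91 CPM, against at least 44.6 and 36.0 CPM in ox-LDL libraries. The list median was 5.05, or 4.43 with Il6 set at a floor of 3 counts per library, and these genes also respond to other factors induced by LPS. Lyz2 (-0.67, adjusted p = 0.371) and Csf3r (0.27, adjusted p = 0.708), myeloid genes of the same list, did not pass. Without ox-LDL replicate 2, Lyz2 was called lower. The Saa3 call was lost without control replicate 5 and without ox-LDL replicate 5.

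Spi1 encodes PU.1, the ETS factor on which the myeloid lineage depends. The gene lies at chr2:90922547-90955913 and was the most abundant of the 9 per length in control cells. Its CPM was 285, 274, 255, 369 and 304 in control replicates 1 to 5 and 179, 229, 194, 229 and 365 in ox-LDL replicates 1 to 5. Apart from ox-LDL replicate 5, every treated library was below every control. The fitted log2 difference was -0.31, standard error 0.23 (edgeR adjusted p = 0.344; exact permutation p = 0.183), and so the difference did not exceed the spread between replicates. Leaving out ox-LDL replicate 5 gave -0.52 (edgeR adjusted p = 0.0812), and by library size alone -0.51 (adjusted p = 0.147); over all alternatives the adjusted p ran from 0.0812 to 0.564. The ratio of Spi1 to Cebpa was nearly level, at 1.76 ± 0.32 and 1.62 ± 0.17 in log2 FPKM (SD, n = 5 each; exact permutation p = 0.429).

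Of 9 tested ETS relatives and partners of PU.1, 4 rose and 1 fell, with a list median of 1.31. Irf8, the partner that PU.1 recruits to composite sites, rose from 104 ± 20.7 to 984 ± 524 CPM (log2 fold change 3.24, edgeR adjusted p = 1.46e-04). Spic, the PU.1-related factor of red pulp macrophages, rose from 0.384 ± 0.219 to 4.53 ± 1.55 CPM (3.54, adjusted p = 1.14e-04). Spic passed the filter on low counts through the ox-LDL group, so it could hardly be called lower. Ets2 (2.03, adjusted p = 0.00155) and Etv6 (1.35, adjusted p = 0.00264) rose as well. Fli1, an ETS factor of blood and endothelial cells, fell from 32.9 ± 4.84 to 15.4 ± 3.17 CPM (-1.10, adjusted p = 0.00122). Irf4, the other interferon regulatory factor partner, was at 1.36 and 1.18 CPM (-0.18, adjusted p = 0.785).

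Of 18 tested genes known to depend on PU.1, 2 rose, 2 fell and 14 did not pass, with a median of 0.21. Of all genes tested, 9.4% were called higher and 5.35% lower. Cybb, the catalytic subunit of the phagocyte oxidase, rose (log2 fold change 2.34, edgeR adjusted p = 3.71e-04), as did Adgre1, which encodes F4/80 (2.07, adjusted p = 2.87e-04). Mrc1, the mannose receptor, fell (-2.24, adjusted p = 1.69e-04), as did the kinase gene Fes (-1.40, adjusted p = 5.22e-04). Csf1r, the receptor for the macrophage growth factor, was at 161 ± 24.2 and 270 ± 122 CPM (0.74, adjusted p = 0.134). Without ox-LDL replicate 2 the number of these genes called lower was 5. Over all genes, the number called lower went from 677 to 1502 without that library.

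Runx1 encodes the RUNX factor that primes Spi1 and its enhancers during blood formation. It is the longest gene here, spanning 224600 bases at chr16:92601712-92826311, with 6 annotated coding transcripts of 957 to 7119 bases. Its CPM was 10.5, 14.4, 16.0, 13.4 and 21.1 in control replicates 1 to 5 and 16.6, 18.4, 27.5, 34.0 and 26.3 in ox-LDL replicates 1 to 5. Only control replicate 5 reached into the treated range. The fitted log2 difference of 0.70, standard error 0.24, did not pass (edgeR adjusted p = 0.0518, and between 0.0121 and 0.315 over the alternatives).

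The deposited FPKM of Runx1 gave a further contrast. The length by which FPKM divides the counts can be computed for each library as the count over FPKM and total count. For Runx1 this length was 5044, 5676, 5402, 5154 and 4966 bases in control replicates 1 to 5, and 3959, 1635, 4586, 4820 and 3162 bases in ox-LDL replicates 1 to 5. It was shorter in every ox-LDL library than in any control library, with ox-LDL replicate 2 the shortest. The means were 5248 ± 290.4 and 3632 ± 1288 bases (SD, n = 5 each; exact permutation p = 0.00794), a difference of -1616 bases, and -1116 without ox-LDL replicate 2. Among the 8176 genes whose FPKM was 1 or more in each of the 10 libraries, 3.41% had lengths that did not overlap between the groups. No other factor of the 9 did so. The length varied by 7.11% of its mean for Maf and by 0.389% for Cebpb over the 10 libraries, against 27.6% for Runx1. This comparison was made after the values had been seen, and which transcripts were counted is not given in the sources used here.

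**Figure D3:**
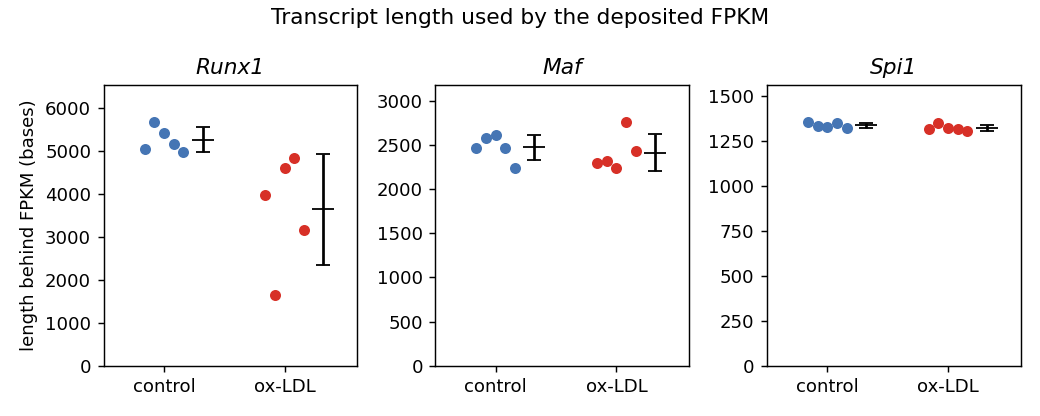
Transcript length in bases that links the deposited counts to the deposited FPKM (vertical axis, from 0), for Runx1, Maf and Spi1 in control (blue) and ox-LDL (red) libraries, with mean ± SD. Runx1 lies between 4966 and 5676 in control and between 1635 and 4820 in ox-LDL libraries, while Spi1 stays between 1307 and 1358 in all 10.

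Because of this length, Runx1 differed more in FPKM than in counts. The log2 ratio of Runx1 to Spi1 rose by 1.65 in FPKM, from -6.30 ± 0.41 to -4.65 ± 0.46 (SD, n = 5 each; exact permutation p = 0.00794, adjusted over the 6 ratios 0.0119). In estimated counts the difference was 1.04, with the same exact permutation p of 0.00794 and no overlap between groups. Among RUNX relatives and corepressors, 5 were tested, 1 rose and 1 fell. Runx3 rose from 0.940 ± 0.415 to 5.14 ± 3.66 CPM (log2 fold change 2.44, edgeR adjusted p = 0.00281). Cbfb, the shared subunit that stabilizes RUNX proteins on DNA, fell from 65.9 ± 6.82 to 36.5 ± 7.33 CPM (-0.85, adjusted p = 0.00464), a call lost without control replicate 5. Runx2 was at 2.66 and 2.91 CPM (0.14, adjusted p = 0.820), and the list median was 0.14.

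Maf encodes c-Maf, a large Maf factor that drives Il10 and complement genes and limits self-renewal. The gene lies at chr8:118206842-118231694 on the minus strand. Its CPM in control replicates 1 to 5 was 29.2, 22.6, 23.4, 26.2 and 38.9. In ox-LDL replicates 1 to 5 it was 14.3, 7.79, 4.83, 6.22 and 11.9. All treated libraries lay below all controls, with ox-LDL replicates 1 and 5 the closest to them. Control libraries averaged 28 ± 6.61 CPM and treated ones 9.01 ± 3.97 CPM (SD, n = 5 each), for a fitted log2 fold change of -1.64 ± 0.30 (standard error), with an edgeR adjusted p of 0.00189 and an exact permutation p of 0.00794. Counts were fractional in all 10 libraries, and Gm15655 overlaps the gene on the other strand.

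The small Maf proteins lack a transactivation domain and pair with other bZIP factors such as Nrf2 and Bach1. Of 5 tested genes for small Maf proteins and their Bach partners, 2 rose and none was called lower by edgeR, with 1 lower at an unadjusted p below 0.05 and 1 called lower by DESeq2. The list median was 0.81. Maff rose from 3.38 ± 0.652 to 22.2 ± 6.73 CPM (log2 fold change 2.71, edgeR adjusted p = 3.19e-05), and Mafg rose from 31.5 ± 5.51 to 81.2 ± 19.8 CPM (1.37, adjusted p = 7.18e-04). Mafk did not pass (0.81, adjusted p = 0.0203). Bach1, a partner that represses with small Maf proteins, had a log2 fold change of -0.82 (adjusted p = 0.0423).

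Of 8 tested genes known to be driven by MAF, 2 fell, and none was higher by edgeR, by DESeq2 or at an unadjusted p below 0.05, with a median of -0.96. Selenop, selenoprotein P, fell from 1039 ± 669.7 to 136 ± 96.7 CPM (log2 fold change -2.93, edgeR adjusted p = 0.00390). Cd163, the haemoglobin scavenger receptor, was called lower (edgeR adjusted p = 6.60e-04). It had at most 27 counts in a control library and at most 2 in an ox-LDL library. Cd163 passed the filter on low counts through the control group, so it could hardly be called higher. The complement genes C1qa, C1qb and C1qc had log2 fold changes of -0.28, -1.03 and -0.90, none of which passed. Il10 was at 0.554 and 0.436 CPM (-0.33, adjusted p = 0.529), and Folr2 at 63.8 CPM in both groups. Without ox-LDL replicate 5 the number called lower was 1.

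**Figure D4:**
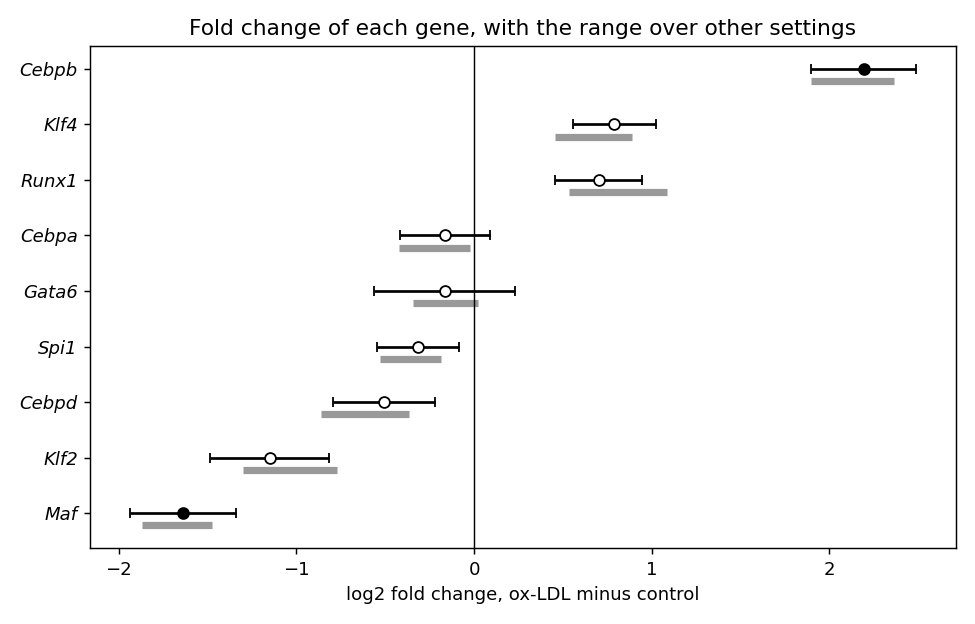
Log2 fold change of each gene, ox-LDL minus control (horizontal axis), as circles with standard error bars; filled circles passed an adjusted p below 0.01 and grey bars give the range over the other settings tried. Cebpb at 2.19 and Maf at -1.64 lie away from 0 over their whole range, and the grey bar of Gata6 crosses 0.

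Klf2 and Klf4, zinc finger factors of the same family, lay on opposite sides of no change, but neither passed the threshold. Klf2, at chr8:74842932-74845555, was at 2.93, 4.28, 4.28, 2.16 and 4.73 CPM in control replicates 1 to 5 and at 2.26, 1.20, 1.90, 2.01 and 0.836 CPM in ox-LDL replicates 1 to 5. Ox-LDL replicate 1 lay just above control replicate 4, and otherwise the groups were apart. The fitted log2 difference was -1.15, standard error 0.34 (edgeR adjusted p = 0.0248; 0.00203 by DESeq2, and up to 0.0716 over the alternatives). Counts of Klf2 were 14 to 109 per library, which limits its precision.

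Klf4, at chr4:55540013-55545347 on the minus strand, was at 3.76, 7.66, 8.64, 5.77 and 7.82 CPM in control replicates and at 9.0, 12.2, 11.9, 13.7 and 11.5 CPM in ox-LDL replicates. All treated libraries exceeded all controls, by a margin of less than 1 CPM between ox-LDL replicate 1 and control replicate 3. The fitted log2 difference was 0.79, standard error 0.23 (edgeR adjusted p = 0.0269; exact permutation p = 0.00794). Without TMM normalization it was 0.58 by library size alone (edgeR adjusted p = 0.248) and 0.46 on log2(FPKM + 1) (limma adjusted p = 0.213), and the groups overlapped in FPKM, at 1.18 to 3.48 in control and 2.45 to 5.21 in ox-LDL libraries. Over all alternatives the adjusted p ran from 0.0125 to 0.248. The log2 ratio of Klf2 to Klf4 in FPKM moved from -0.09 ± 0.39 to -2.12 ± 0.68 (SD, n = 5 each). This difference of -2.03 was larger than the replicate spread (exact permutation p = 0.00794, adjusted over the 6 ratios 0.0119), so the 2 transcripts were about equal in control cells and Klf4 was the more abundant in every ox-LDL library.

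None of the 9 other KLF genes tested passed the edgeR threshold in either direction, with a median of 0.42. Klf6, an early-response gene, was at 207 ± 17.7 and 365 ± 81.5 CPM (log2 fold change 0.82, edgeR adjusted p = 0.0114), and Klf10 had a log2 fold change of 1.25 (adjusted p = 0.0246). At an unadjusted p below 0.05, 4 of the 9 were higher and none lower. DESeq2 called 3 of them higher, Klf6, Klf10 and Klf11, and 3 were called higher by edgeR without ox-LDL replicate 2. Without that library, edgeR calls higher over all genes went from 1189 to 1755. The route from the kinase ERK5 through MEF2 factors, which drives Klf2 and Klf4, had 7 tested genes. Mef2c fell from 11.6 ± 1.22 to 2.88 ± 2.03 CPM (-1.99, adjusted p = 0.00179). Mapk7, which encodes ERK5, was at 16.6 and 22.9 CPM (0.47, adjusted p = 0.148), and Mef2a (-0.73, adjusted p = 0.0322) and Mef2d (0.44, adjusted p = 0.261) did not pass. Of 7 KLF2 and KLF4 targets, Thbd, thrombomodulin, fell (-2.91, adjusted p = 0.00274), as did Mrc1 with the value given above, while S1pr1 (-0.22, adjusted p = 0.694) and Arg1 (3.60, adjusted p = 0.0189) did not pass.

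Gata6 was the least abundant of the 9 per length. Its CPM was 1.22, 0.599, 1.75, 1.24 and 1.04 in control replicates 1 to 5 and 1.3, 0.343, 0.975, 1.48 and 1.02 in ox-LDL replicates 1 to 5. The groups overlapped over most of their range. Counts were 4 to 41 per library, and the fitted log2 difference was -0.17, standard error 0.40 (edgeR adjusted p = 0.802), so a difference was not detectable at this depth. Of 10 tested genes that depend on GATA6 in resident peritoneal macrophages, Timd4 was called higher (edgeR adjusted p = 0.00161). It encodes the phosphatidylserine receptor TIM-4 and went from at most 5 counts per control library to at most 43 per ox-LDL library. Timd4 passed the filter on low counts through the ox-LDL group, so it could be called higher but hardly lower. F10, coagulation factor X, was at 198 ± 35.3 and 628 ± 424 CPM (log2 fold change 1.66, edgeR adjusted p = 0.0101) and did not pass. DESeq2 called Timd4 and F10 higher, and the list median was 0.90. None was called lower by edgeR, with 2 lower at an unadjusted p below 0.05 and 2 called lower by DESeq2, and the values of Itga6 (-1.70, adjusted p = 0.0101) and Icam2 (-1.29, adjusted p = 0.0140) lay close to the threshold. Without ox-LDL replicate 2, Itga6 and Icam2 were called lower and Timd4 and F10 higher. Selp, P-selectin, did not pass the filter on low counts, with at most 33 counts per control and 3 per ox-LDL library. It passed the filter and was called lower without ox-LDL replicate 2, without ox-LDL replicate 5 and without control replicate 5. None of the 8 tested genes of the GATA family and the retinoic acid route to GATA6 passed, among them Rara (0.69, adjusted p = 0.172) and Aldh1a2 (0.36, adjusted p = 0.519), with a median of 0.06. At an unadjusted p below 0.05, 1 of the 8 was higher and none lower, and DESeq2 called none. Gata1, Gata2, Gata3, Gata4 and Gata5 did not pass the filter on low counts.

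The order of the 9 genes was set per length, in FPKM. For Cebpd that length was 2222 bases, where the annotated transcript has 1180. For Maf it was 2424 bases, where the annotated coding transcripts have 3223 to 6360. The places of Cebpd and Maf depend on these lengths, and the order under the annotated lengths was not tested. In control cells the means were 233 for Spi1, 70.3 for Cebpa, 44.2 for Cebpb and 12.1 for Maf. Below these came Cebpd at 4.94, Runx1 at 3.10, Klf4 at 2.54, Klf2 at 2.38 and Gata6 at 0.412. Spi1 and Cebpa, Cebpb and Maf, Maf and Cebpd, and Klf2 and Gata6 did not overlap as neighbours, whereas Cebpa and Cebpb did overlap in range, as did Cebpd, Runx1, Klf4 and Klf2 in turn. In ox-LDL cells Cebpb, at 172, stood beside Spi1, at 166, with overlapping ranges. Cebpa was at 55.2, Runx1 at 6.45, Klf4 at 3.80, Maf at 3.59, Cebpd at 2.84, Klf2 at 0.984 and Gata6 at 0.348. Among neighbours in this order, Spi1 and Cebpa, Cebpa and Runx1, and Cebpd and Klf2 were apart, and the others overlapped. Maf thus moved from the fourth place to the sixth, and Cebpb exceeded Spi1 in 4 of 5 ox-LDL libraries and in no control library.

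Other regulators of myeloid fate were compared as a list of 21, with 19 tested, 2 higher and 4 lower at a median of -0.21. Id2, an inhibitor of bHLH factors, rose from 167 ± 51.6 to 743 ± 553 CPM (log2 fold change 2.16, edgeR adjusted p = 0.00701), and Bhlhe41 rose by 1.55 (adjusted p = 0.00362). Pparg, the lipid-sensing nuclear receptor, fell from 109 ± 23.4 to 20 ± 5.78 CPM (-2.45, adjusted p = 3.66e-05). The blood progenitor factors Hhex (-2.69, adjusted p = 6.52e-04), Lyl1 (-2.0, adjusted p = 1.17e-04) and Ikzf1 (-1.07, adjusted p = 0.00398) fell. Zeb2, a factor that maintains tissue macrophages, was at 202 and 182 CPM (-0.15, adjusted p = 0.604). Without ox-LDL replicate 2, where calls higher over all genes went from 1189 to 1755, the number called higher was 4, adding Tal1 and Gfi1. Without ox-LDL replicate 5 it was 1, as Id2 lost its call. Without control replicate 5, Id2 and Ikzf1 lost their calls, and Tal1 and Gfi1 were called higher. With all libraries Gfi1 did not pass the filter on low counts.

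**Figure D5:**
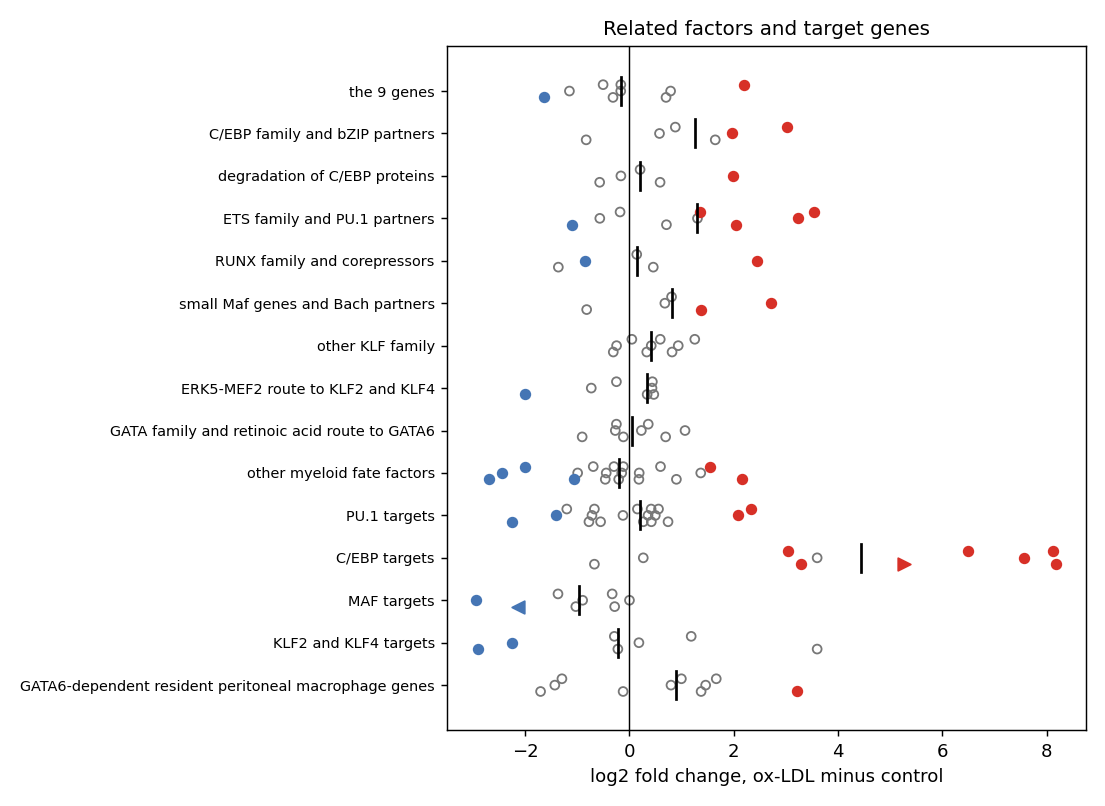
Fitted log2 fold change of each tested gene, ox-LDL minus control (horizontal axis), for the 9 genes and 14 lists of relatives, partners and targets; red and blue points were called higher and lower, open circles did not pass, black bars are list medians, and triangles give the bound for genes with at most 3 counts in every library of a group. C/EBP targets lie farthest to the right, with 7 of 10 called higher, where 9.4% of all genes tested were called higher. Of these targets, Il6, Il12b, Nos2 and Ptgs2 passed the filter on low counts through the ox-LDL group and could hardly be called lower. Among them only Il6 is drawn at its bound. MAF targets have their median at -0.96.

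The genes whose log2 CPM followed each factor most closely over the 10 libraries were found among 7514 genes with a mean of at least 10 CPM. For Cebpb they were Nfkbib, an inhibitor of NF-kB (Pearson's r = 0.992), and Irf8 (0.992). For Maf, Rtf2 is given (0.987). For Spi1 they were 2310033P09Rik (0.961) and Rac1 (0.961), for Runx1 Hivep1 (0.983) and Ptpn23 (0.978), and for Klf4 Arid5b (0.958) and Kmt2c (0.942). For Gata6 the closest was Ikbke, at 0.798. These are descriptions over libraries of both groups, which share the group difference and the normalization.

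Macrophage markers were present in every library, all 8 of the list having been tested, at summed levels of 22723 to 42039 CPM in control and 13125 to 27967 CPM in ox-LDL libraries when scaled by library size alone. Lyz2 made up most of this sum. Markers of mesothelial and stromal cells, a list of 10, summed to 18.1 to 61.7 CPM in control and 66.1 to 174 CPM in ox-LDL libraries, without overlap. In this list Col1a1, Col1a2 and Dcn were called higher. The mesothelial genes Msln, Upk3b and Lrrn4 had at most 21 counts in any library, and Krt19 at most 30. Upk3b was lower in ox-LDL libraries, with 0 to 5 counts against 6 to 17 in control libraries. Lrrn4 had 0 to 7 counts in ox-LDL and 3 to 21 in control libraries. Wt1 had 7 to 46 counts in control and 13 to 56 in ox-LDL libraries (log2 fold change 0.75, edgeR adjusted p = 0.264). Of 6 markers of eosinophils and mast cells, 5 were in the table. They summed to 2.85 to 7.94 CPM in control and 0.564 to 1.92 CPM in ox-LDL libraries, again without overlap. Siglecf alone of these was called lower, at 2.47 to 6.55 CPM in control and 0.256 to 0.609 CPM in ox-LDL libraries. Cpa3 did not pass (edgeR adjusted p = 0.159), and Prg2, Mcpt4 and Kit had at most 6 counts in any library. The summed markers of neutrophils, B cells, T cells, endothelial cells and dendritic cells overlapped between groups. The B and T cell sums reached at most 3.66 and 1.72 CPM. Single markers within these sums did differ. The neutrophil marker S100a8 (log2 fold change 2.76, edgeR adjusted p = 0.00310) and the endothelial marker Eng (1.62, adjusted p = 9.99e-04) were called higher. Counts of Cxcr2, Ltf and Cd209a were lower in every ox-LDL library than in any control library. Those of Camp and Pecam1 were higher, all of these genes having at most 38 counts in any library. The part of these cells in the values of Cebpb, Maf and the other factors was not tested.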

How the data were processed

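Per the labels and the study's methods, libraries were run on the BGISEQ-500 platform, and the authors used HISAT2 2.0.5 on mm9, SAMtools 1.4 and StringTie 1.3.3.13. The authors deposited estimated counts for each gene (13.6% of values not whole) and a length-scaled value without a named unit. The deposited second value was treated as FPKM, since the length linking it to the counts varied little between libraries (median coefficient of variation 1.26% over 8176 genes); the counting step is not given in the sources used here. Among 39488 rows, 9788 circular RNA rows were left out, and 22818 of 23382 NCBI genes had a symbol.

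Estimated counts were rounded, filtered with filterByExpr, TMM-normalized and tested with edgeR 4.0.16 (robust quasi-likelihood, R 4.3.3); standard errors come from the fold change and its F value. For genes, a call needed an adjusted p below 0.01. The 6 ratios between factors were called at an adjusted p below 0.05. The study's second cutoff, an absolute log2 fold change of 2, is counted apart. Named genes were the 9 factors and up to 4 called genes per list and direction, with others as values. The 9 genes, the 14 lists, the 8 marker lists and the tests were chosen with earlier results of these data known. Alternatives were DESeq2 1.42.0, limma 3.58.1 on log2(FPKM + 1) and log2(FPKM + 0.1), library size alone, no filter, all rows, a length trend removed, a replicate block and each library left out; ratios of counts, the Runx1 length and lists without single libraries were added after seeing the data. The edgeR, DESeq2 and limma fits were tried on simulated counts, drawn with less spread between libraries than these data show. The permutation tests, the ratios and the Runx1 length were not simulated. Values of some related genes are not reported here. Promoters are from RefSeq, and gene positions from the GENCODE annotation of NCBIM37.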

Additional observations from a re-analysis of the deposited data

Results flagged for a closer look

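In the ox-LDL group, replicate 5 lay far from the other 4 libraries for 2 of the 9 genes. Spi1 was at 365 CPM there, where the nearest of the others was at 229 CPM, a gap of 0.731 of the group's range. Cebpa was at 238 CPM, where the nearest was at 137 CPM, a gap of 0.799 of the range. The limit for 5 libraries is 0.71. In all, 30 groups of 5 libraries were examined, 2 exceeded the limit, and chance gives about 1.5. The TMM factor of this library was 0.837. Its Spi1 value lay within the range of the control libraries in CPM (255 to 369) and in the deposited FPKM (188.6 to 264.6). In FPKM, which does not use the factor, Spi1 was at 229.8, and the nearest other ox-LDL library at 189.2. For Cebpa these were 79.5 and 60.8. The part of the factor in these gaps was not tested.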

How the results depend on the processing

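Cebpb and Maf kept their direction and their call under all 18 alternatives, with log2 fold changes of 1.89 to 2.36 and -1.87 to -1.48. Spi1, Cebpa, Klf4 and Runx1 were called under none of the alternatives and kept their direction. Cebpd was called without ox-LDL replicate 2 (leave-one-out range -0.86 to -0.36), and Klf2 by DESeq2 (-1.19, adjusted p = 0.00203). The direction of Gata6 turned without control replicate 3 (0.021, leave-one-out range -0.34 to 0.02), and Gata6 could not be fitted on FPKM, where it fell under the filter. The number of the 9 called lower was therefore 2 by DESeq2 and 2 without ox-LDL replicate 2 (leave-one-out range 1 to 2), and the number called higher stayed at 1. At the ratio threshold of 0.05, the 6 ratios kept their direction and call without each library and in estimated counts. The differences for Runx1 to Spi1 were 1.46 to 1.78 without a library and 1.04 in counts.

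Over all genes, 1189 were called higher and 677 lower. By library size alone these were 704 and 583, by DESeq2 1922 and 1331, on log2(FPKM + 1) 555 and 750, on log2(FPKM + 0.1) 543 and 700, with the length trend removed 1648 and 1228, and without ox-LDL replicate 2 1755 and 1502. Without control replicate 4 they were 826 and 436, and without ox-LDL replicate 3 921 and 437. The median log2 fold change of all genes, 0.10, was -0.09 by library size alone, 0.31 by DESeq2, 0.27 without a filter and -0.14 and -0.18 on FPKM, so directions near 0 are relative to it. Of the 34 genes called in the lists, 6 lost their call by library size alone (Trib3, Etv6, Cbfb, Mafg, Bhlhe41 and Ikzf1), Ets2 and the same 6 did so on log2(FPKM + 1), where 31 could be fitted, and none changed direction under these or DESeq2. The cause of these shifts was not tested.

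The labels do not say whether same-numbered libraries are pairs. Same-numbered deviations correlated at 0.02, -0.27, 0.44, -0.28 and 0.41, and only number 5 matched its own number best. These values cannot exclude pairing, since differences of single libraries enter them too. With the replicate block, 885 genes were called higher and 549 lower, and Cebpb and Maf kept their calls.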
